A study of Mus musculus with 8 samples.

Results

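Messenger RNA of 10 feedback genes of the extracellular signal-regulated kinase (ERK) pathway was measured in immortalized mouse embryonic fibroblasts, and 3 of the 10 were lower and 1 was higher in libraries labelled Opa1-/- than in libraries labelled Opa1-/- + OPA1. Of all genes tested 33.0% differed, 16.8% lower and 16.3% higher, so 4 of 10 is near the background and the count itself is not a result about these genes. The genes are the phosphatases Dusp4, Dusp5 and Dusp6, the inhibitors Spry1, Spry2, Spry4, Spred1 and Spred2, and the transcription factors Etv4 and Etv5. They were chosen by name, and all 10 were found among the 49315 genes of each file. All 8 libraries come from cells labelled Opa1-/-. For 4 of them the label names no addition (the Opa1-/- libraries). In the other 4 OPA1, a GTPase that fuses mitochondrial inner membranes, had been put back (Opa1-/- + OPA1, the reconstituted libraries). No treatment is named for either group. Whether a line is 1 clone, how OPA1 was delivered and whether the 4 libraries of a group were separate cultures are not stated in the sources used here. The p-values therefore describe the scatter among these libraries alone, and that scatter may be technical.

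ERK is the last kinase of a cascade in which growth factor receptors switch on RAS, and RAS acts through RAF and MEK. Active ERK switches on genes that damp the cascade again. DUSP phosphatases remove phosphate from MAP kinases, Sprouty and Spred proteins act against RAS and RAF activation, and ETV4 and ETV5 are ETS transcription factors made downstream of fibroblast growth factor and ERK signalling. Transcripts of these genes are widely used as a readout of ERK output. They show neither ERK phosphorylation nor protein levels.

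Levels are deposited TPM values (transcript abundance corrected for gene length and library total), scaled between libraries. Differences are Opa1-/- minus reconstituted libraries on log2(scaled TPM + 1), which understates the change of low genes, and p-values were computed by limma with a mean-variance trend and adjusted (Benjamini-Hochberg) over 14272 genes. The steps between TPM values correspond to 5.29e+07 to 5.78e+07 reads per library, and each of the 10 feedback genes rested on at least 119 reads in every library. Opa1 itself averaged 13.9 ± 1.05 TPM in Opa1-/- libraries and 14.8 ± 0.530 TPM in reconstituted libraries (SD, n = 4 each; adjusted p = 0.306 by limma), so its total does not check the labels. Opa1-/- library 4 lay 0.30 (root mean square log2 difference over the genes tested) from the other Opa1-/- libraries, against 0.21 to 0.24 for the other 7 libraries. For genes whose difference is printed, values without it are given where they change a call or move a value by over 1.5 times. Of 9 fibroblast markers 8 were above 1 TPM, and Fap was below 1 TPM in every library. All 4 endothelial and 4 muscle markers were below 1 TPM, with Myog at 0, and so were 4 of 5 blood markers, Ptprc among them, while Cd68 was above 1 TPM in every library. The muscle markers summed to 0.601 to 0.888 TPM in Opa1-/- libraries and 0.184 to 0.440 TPM in reconstituted libraries. The 5 neural and glial markers summed to 14.6 to 16.4 TPM in Opa1-/- libraries and 20.9 to 23.3 TPM in reconstituted libraries, mostly from Tubb3. The 6 epithelial markers summed to 13.8 to 16.7 TPM in Opa1-/- libraries and 7.78 to 9.93 TPM in reconstituted libraries, mostly from Cdh1, the others being below 1 TPM. The fibroblast markers summed to 2693 to 2977 TPM in Opa1-/- libraries and 3125 to 3192 TPM in reconstituted libraries. The part of these markers in the results below was not tested.

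The sequences just before the start sites of the 4 genes that passed the test show what lies in these promoters. RefSeq start sites (GRCm38.p6) were found for 7 of the 10 genes, in 8 windows, and not for Dusp4, Spry4 and Etv4. The 250 bases upstream of each start are printed 5′ to 3′ in the direction of the gene, and capitals mark CArG boxes, the sites of serum response factor. The windows lie at chr19:53528895-53529144, plus strand (Dusp5), chr10:99262981-99263230, plus strand (Dusp6), chr14:105896820-105897069, minus strand (Spry2) and chr3:37639697-37639946, plus strand (Spry1).
Dusp5: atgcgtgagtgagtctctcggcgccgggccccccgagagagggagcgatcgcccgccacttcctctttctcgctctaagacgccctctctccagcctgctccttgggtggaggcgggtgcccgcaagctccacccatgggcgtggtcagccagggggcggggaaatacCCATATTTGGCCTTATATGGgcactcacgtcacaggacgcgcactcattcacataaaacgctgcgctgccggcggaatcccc
Dusp6: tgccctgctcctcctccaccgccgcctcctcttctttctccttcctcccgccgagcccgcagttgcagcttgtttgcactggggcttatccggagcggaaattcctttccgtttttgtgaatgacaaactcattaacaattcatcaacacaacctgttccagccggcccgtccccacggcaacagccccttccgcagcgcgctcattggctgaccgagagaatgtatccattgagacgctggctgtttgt
Spry2: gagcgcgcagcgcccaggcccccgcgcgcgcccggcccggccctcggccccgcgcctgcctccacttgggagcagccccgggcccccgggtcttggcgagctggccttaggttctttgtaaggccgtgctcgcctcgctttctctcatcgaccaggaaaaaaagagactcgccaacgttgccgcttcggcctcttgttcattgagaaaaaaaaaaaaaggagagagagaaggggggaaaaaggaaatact
Spry1: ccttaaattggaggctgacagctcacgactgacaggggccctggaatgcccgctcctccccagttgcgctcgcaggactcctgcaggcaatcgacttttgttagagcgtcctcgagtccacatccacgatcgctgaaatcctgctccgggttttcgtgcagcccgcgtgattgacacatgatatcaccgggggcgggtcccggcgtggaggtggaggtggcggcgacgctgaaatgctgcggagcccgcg

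These windows are rich in CG pairs. Dusp5 holds 21, Dusp6 16, Spry2 23 and Spry1 23, against a median of 6 over the same stretch of 32851 promoters. The windows of 250 bases before and 50 after each start were searched on both strands for letters that ERK-linked factors are known to bind. None of the 8 windows held TGAATGAA or TGAATGGA, the octamers of the repressor CIC, which 1.30% and 1.21% of all promoters hold. None held the AP-1 site TGANTCA (7.81% of all), the ETS site CGGAAGT (6.42% of all) or the cyclic AMP site TGACGTCA (1.79% of all). Variants of these letters were not searched, and at shares this low finding none in 8 windows says little. No match can count under more than 1 of these motifs. The CArG box was added after the sequences were seen. It was in the Dusp5 window, at 82 to 73 and 72 to 63 bases before the start, and in 1.63% of all promoters.

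Among the 10 genes, Dusp5, Dusp6 and Spry2 fell and Spry1 rose in Opa1-/- libraries, and 6 did not pass. That is 4 of 10, against the 33.0% of all genes tested. The libraries of the groups did not overlap for 6 genes on the lower side and 1 on the higher side, 7 of 10 in all. Of all genes tested 36.3% did not overlap, 18.9% on the lower side and 17.4% on the higher. The median difference of the 10 was -0.18, and that of all genes tested -0.00.

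**Figure D1:**
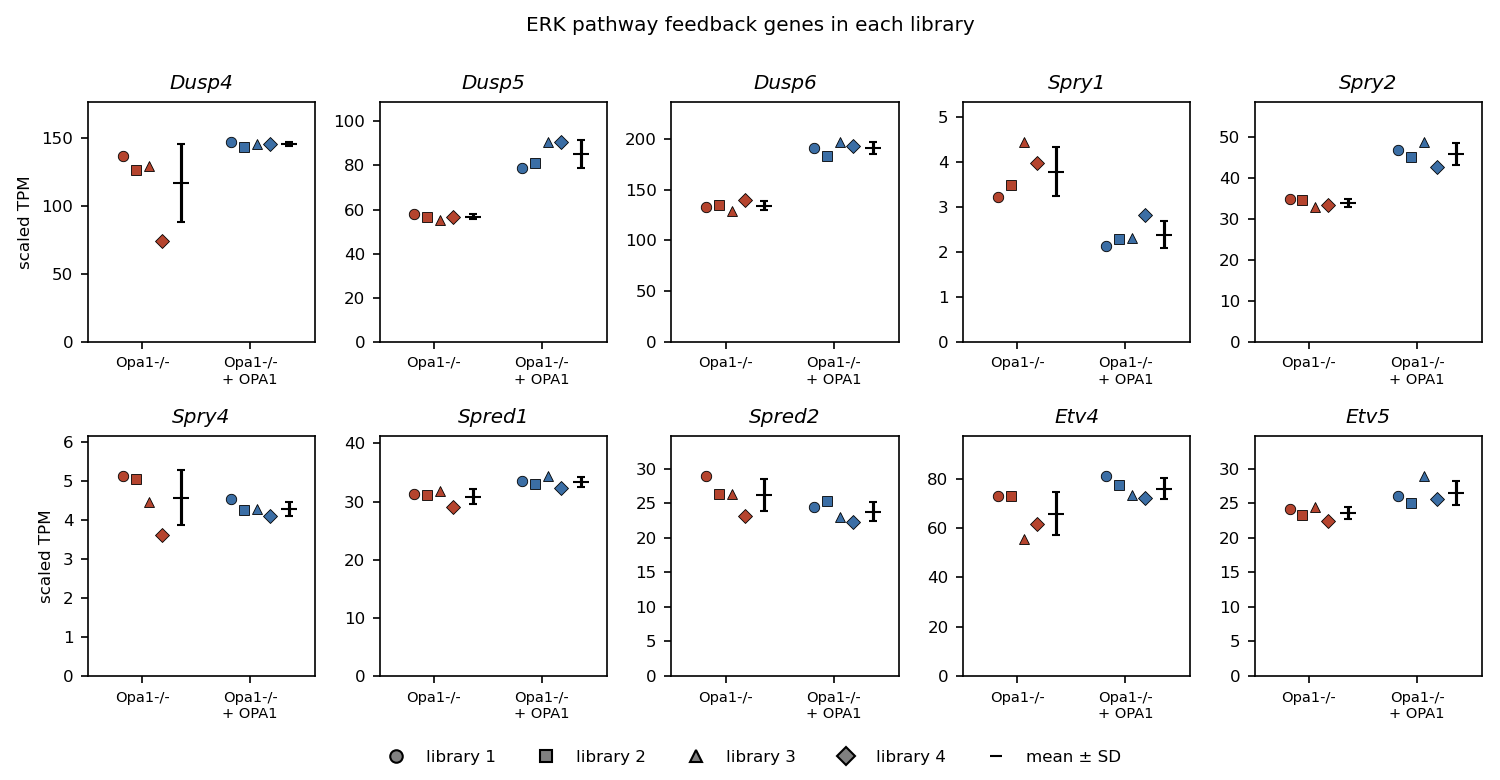
Scaled TPM of each gene in every library (vertical axes start at 0), Opa1-/- on the left and Opa1-/- + OPA1 on the right, with the symbol giving the library number and the bar the mean ± SD of 4 libraries. Dusp5, Dusp6 and Spry2 lie lower in all 4 Opa1-/- libraries, Spry1 lies higher, and Dusp4 has 1 Opa1-/- library at 74.4 TPM, far below the other 3.

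Dusp6 encodes the cytoplasmic phosphatase that acts on ERK itself (ENSMUSG00000019960; GRCm38 chromosome 10, 99263231 to 99267489, plus strand). It was at 133, 135, 129 and 139 TPM in Opa1-/- libraries 1 to 4, against 191, 183, 197 and 193 TPM in reconstituted libraries 1 to 4. The groups were well apart, with each Opa1-/- library below every reconstituted one. The mean was 134 ± 4.36 TPM in Opa1-/- libraries and 191 ± 5.79 TPM in reconstituted libraries (SD, n = 4 each), 29.8% lower (difference -0.51, SE 0.04, adjusted p = 4.31e-05 by limma). In bulk RNA, fewer expressing cells and less RNA per cell cannot be told apart.

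Dusp5, the nuclear phosphatase for ERK (ENSMUSG00000034765; chromosome 19, 53529109 to 53542431, plus strand), was at 58.1, 56.7, 55.4 and 56.8 TPM in Opa1-/- libraries, against 78.9, 81.0, 90.8 and 90.7 TPM in reconstituted libraries. The Opa1-/- libraries were almost equal, while reconstituted libraries 3 and 4 were above 1 and 2. The means were 56.7 ± 1.11 TPM in Opa1-/- libraries and 85.3 ± 6.31 TPM in reconstituted libraries (SD, n = 4 each), and the difference was -0.58 (SE 0.05, adjusted p = 9.98e-05 by limma). Of its exon bases 22.1% are shared with an antisense gene, AC137853.2, and reads there cannot be told apart because counting by strand is not stated.

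Dusp4, a nuclear phosphatase for ERK and other MAP kinases (ENSMUSG00000031530; chromosome 8, 34807297 to 34819894, plus strand), was at 136, 126, 129 and 74.4 TPM in Opa1-/- libraries, against 147, 143, 145 and 145 TPM in reconstituted libraries. All 4 Opa1-/- libraries were below the reconstituted ones, which varied little, and library 4 stood far below the rest. The means were 117 ± 28.5 TPM in Opa1-/- libraries and 145 ± 1.68 TPM in reconstituted libraries (SD, n = 4 each; difference -0.35, SE 0.17, 95% confidence interval -0.73 to 0.03, adjusted p = 0.138 by limma). Without Opa1-/- library 4 the difference was -0.15 (SE 0.03) and passed (adjusted p = 0.00777). The median difference of chromosome 8 over its 524 genes with a mean log2 value above 3 was -0.18, and after subtracting each chromosome's median Dusp4 was at -0.17 (adjusted p = 0.485).

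In Opa1-/- library 4 Dusp4 was 0.80 below the mean of the other 3 on the log2 scale. Only 59 of 14272 genes were as low or lower there by this measure, Dusp4 included. The spread of this measure over all genes was 0.30 (SD). Among genes tested, the 3 that follow Dusp4 on the chromosome were also below the other 3 libraries, by less. They start at 34826460 (Tnks), 35465253 (Eri1) and 35587798 (Mfhas1), and untested genes were passed over. Tnks, a poly(ADP-ribose) polymerase, was 0.48 below them, at 22.8, 20.4, 22.5 and 15.4 TPM in Opa1-/- libraries 1 to 4. Eri1, an exonuclease, was 0.36 and Mfhas1 0.34 below the other 3 libraries. On the other side of Dusp4, Saraf (start at 34154575) was 0.06 and Leprotl1 (start at 34135572) 0.10 below them. The low-level genes Mir6395 and Rps12-ps24 were 0.24 and 0.09 above them, and Gm10131 was 0.22 above. Over the 773 genes tested on chromosome 8 the median of this measure was -0.01. These neighbours were looked at after the Dusp4 values were seen.

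**Figure D2:**
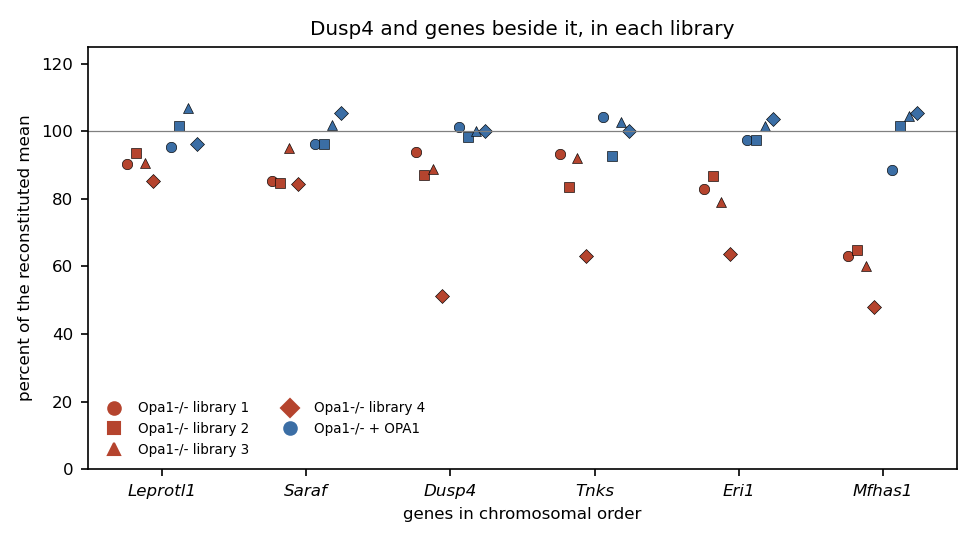
Dusp4 and tested genes beside it on chromosome 8, in chromosomal order with even spacing. Each library is drawn as a percent of the mean of the 4 reconstituted libraries (vertical axis from 0). Opa1-/- library 4 (diamonds) lies below the other Opa1-/- libraries at Dusp4, Tnks, Eri1 and Mfhas1, and close to them at Leprotl1 and Saraf. Gm10131, Mir6395 and Rps12-ps24, which lie among these genes or beside them, are not drawn.

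Of the Sprouty genes, Spry2, the most abundant, fell and Spry1, the least abundant, rose. Spry2, an inhibitor induced by growth factors (ENSMUSG00000022114; chromosome 14, 105891947 to 105896819, minus strand), was at 34.9, 34.6, 32.9 and 33.3 TPM in Opa1-/- libraries, against 46.7, 45.1, 48.8 and 42.7 TPM in reconstituted libraries. The groups did not overlap, and the reconstituted libraries were the more variable. The means were 33.9 ± 0.961 TPM in Opa1-/- libraries and 45.8 ± 2.61 TPM in reconstituted libraries (SD, n = 4 each; difference -0.42, SE 0.05, adjusted p = 0.000290 by limma). The median of chromosome 14 was -0.17, and after subtracting it Spry2 was at -0.26 (adjusted p = 0.00470).

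Spry1, a second Sprouty inhibitor (ENSMUSG00000037211; chromosome 3, 37639947 to 37644598, plus strand), was at 3.23, 3.48, 4.45 and 3.99 TPM in Opa1-/- libraries, against 2.14, 2.28, 2.32 and 2.81 TPM in reconstituted libraries. Every Opa1-/- library was above every reconstituted one, at a low level in both groups. The means were 3.79 ± 0.544 TPM in Opa1-/- libraries and 2.39 ± 0.292 TPM in reconstituted libraries (SD, n = 4 each; difference 0.50, SE 0.10, adjusted p = 0.00619 by limma). At this level the added 1 TPM matters, and with 0.1 added the difference was 0.64. Of its exon bases 24.4% are shared with Gm42922 on the other strand, which averaged 0.160 TPM.

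Spry4 (ENSMUSG00000024427; chromosome 18, 38586247 to 38601415, minus strand), also a Sprouty inhibitor, was at 5.14, 5.06, 4.47 and 3.62 TPM in Opa1-/- libraries, against 4.54, 4.25, 4.29 and 4.10 TPM in reconstituted libraries. The groups overlapped, with Opa1-/- libraries at both ends of the range. The difference was 0.07 (95% confidence interval -0.15 to 0.28, adjusted p = 0.647 by limma). It was 0.15 without Opa1-/- library 4 (adjusted p = 0.106) and 0.02 without Opa1-/- library 1 (adjusted p = 0.912).

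The Spred genes, whose proteins bring the RAS inactivator neurofibromin to the membrane, did not pass. Spred1 (ENSMUSG00000027351; chromosome 2, 117121374 to 117182279, plus strand) was at 31.4, 31.1, 31.8 and 29.0 TPM in Opa1-/- libraries, against 33.6, 33.1, 34.4 and 32.3 TPM in reconstituted libraries. The groups did not overlap, but the gap was small beside their spread (difference -0.11, SE 0.04, adjusted p = 0.0792 by limma). Spred2 (ENSMUSG00000045671; chromosome 11, 19924375 to 20024026, plus strand) was at 29.0, 26.3, 26.3 and 23.2 TPM in Opa1-/- libraries, against 24.5, 25.3, 23.0 and 22.2 TPM in reconstituted libraries. The groups overlapped through Opa1-/- library 4 (difference 0.13, SE 0.07, adjusted p = 0.181 by limma), and without that library the difference was 0.19 and passed (adjusted p = 0.0305).

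The ETS factors Etv4 and Etv5 were a little lower in the mean and did not pass. Etv4 (ENSMUSG00000017724; chromosome 11, 101769742 to 101785371, minus strand) was at 73.2, 73.0, 55.6 and 61.7 TPM in Opa1-/- libraries, against 81.2, 77.7, 73.4 and 72.0 TPM in reconstituted libraries. Libraries 1 and 2 were above 3 and 4 in both groups, and the groups overlapped (difference -0.21, SE 0.09, adjusted p = 0.0975 by limma). It passed once trends of each library with GC content and exon length were taken out (-0.28, adjusted p = 0.0259).

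Etv5 (ENSMUSG00000013089; chromosome 16, 22381309 to 22439719, minus strand) was at 24.2, 23.3, 24.5 and 22.5 TPM in Opa1-/- libraries, against 26.1, 25.1, 29.0 and 25.6 TPM in reconstituted libraries. The groups did not overlap, and the test fell just short (difference -0.16, SE 0.05, adjusted p = 0.0519 by limma). Etv5 passed at 0.0402 with limma-voom on recovered reads, at 0.0370 when protein-coding genes alone were tested, and at 0.0446 with scaling factors taken from all genes above 0.

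**Figure D3:**
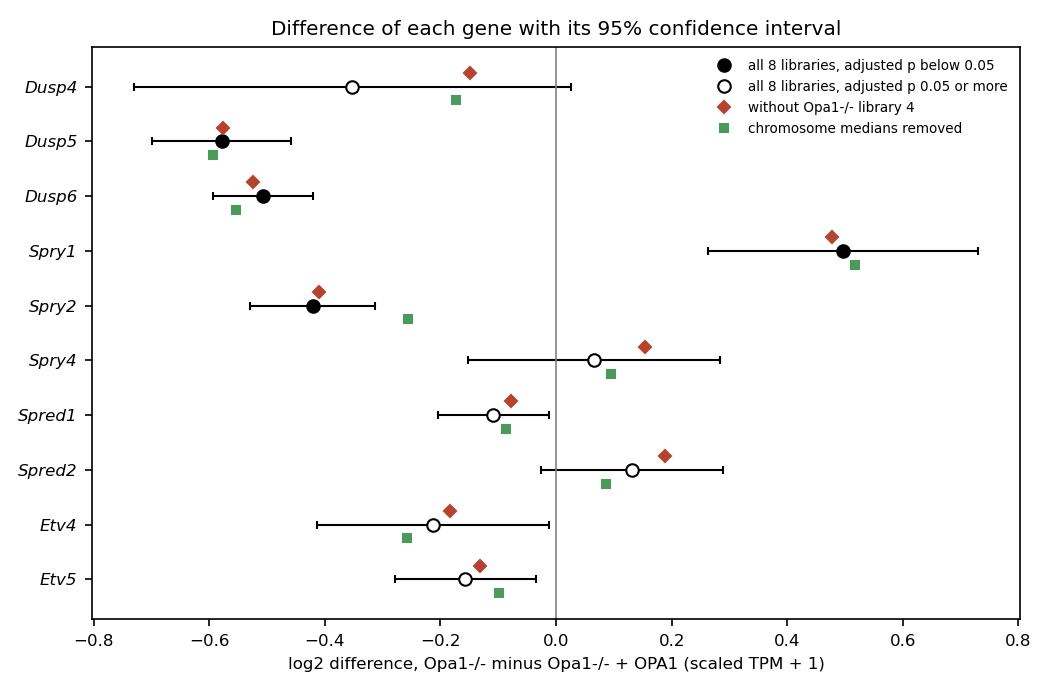
Log2 difference of each gene, Opa1-/- minus Opa1-/- + OPA1, with its 95% confidence interval from limma (black; filled where adjusted p was below 0.05), and the same without Opa1-/- library 4 (diamonds) and after subtraction of each chromosome's median (squares). Every gene stays on its side of 0, called or not, and Dusp4 moves to -0.15 and -0.17.

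By level, TPM being corrected for length, the order in Opa1-/- libraries was Dusp6, Dusp4, Etv4, Dusp5, Spry2, Spred1, Spred2, Etv5, Spry4 and Spry1. There the library ranges of Dusp6 and Dusp4, of Etv4 and Dusp5, of Spred2 and Etv5, and of Spry4 and Spry1 overlapped. In reconstituted libraries Dusp5 (85.3 TPM) stood above Etv4 (76.1 TPM) and Etv5 (26.5 TPM) above Spred2 (23.8 TPM), and these were the neighbours whose ranges overlapped. The 3 phosphatases together averaged 308 ± 25.3 TPM in Opa1-/- libraries and 422 ± 11.9 TPM in reconstituted libraries (SD, n = 4 each). The Sprouty genes summed to 42.3 ± 1.11 TPM in Opa1-/- libraries and 52.5 ± 2.505 TPM in reconstituted libraries, and the Spred genes to 57.0 ± 3.44 TPM in Opa1-/- libraries and 57.1 ± 1.76 TPM in reconstituted libraries (SD, n = 4 each).

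A ratio of 2 genes within a library does not depend on scaling, and shows whether members of a family changed by different amounts. Among 8 such pairs, Spry1/Spry2, Spry2/Spry4 and Spred1/Spred2 did not overlap between the groups. Each had the smallest p that 4 against 4 allows in a two-sided exact permutation test (0.0286), and 0.0762 after Benjamini-Hochberg adjustment over the 8 pairs, so none passed the adjustment. Spry1 was at 0.0927, 0.1005, 0.135 and 0.120 of the Spry2 level in Opa1-/- libraries 1 to 4, and at 0.0459, 0.0506, 0.0475 and 0.0659 of it in reconstituted libraries. Spry1 thus made up 8.98% ± 1.47 of Sprouty TPM in Opa1-/- libraries and 4.57% ± 0.752 in reconstituted libraries, and Spry2 80.2% ± 1.16 in Opa1-/- libraries and 87.2% ± 0.851 in reconstituted libraries (SD, n = 4 each). Spred1 averaged 1.18 times Spred2 in Opa1-/- libraries and 1.40 times Spred2 in reconstituted libraries.

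Dusp5 and Dusp6 kept close to a fixed ratio. Dusp5 was at 0.437, 0.419, 0.429 and 0.407 of the Dusp6 level in Opa1-/- libraries, against 0.413, 0.441, 0.460 and 0.470 of it in reconstituted libraries. The groups overlapped (difference of the log2 ratio -0.08, two-sided exact permutation p = 0.171, adjusted p = 0.274). Etv4 averaged 2.77 times Etv5 in Opa1-/- libraries and 2.88 times Etv5 in reconstituted libraries (exact permutation p = 0.657).

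**Figure D4:**
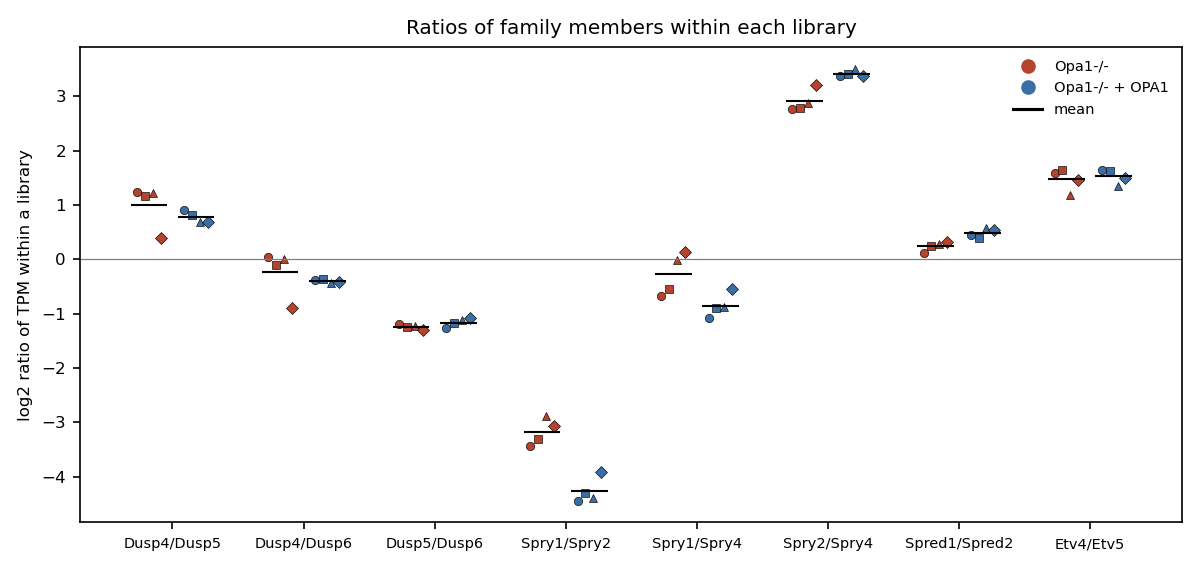
Log2 ratio of the TPM of 2 family members within each library, Opa1-/- on the left of each pair and Opa1-/- + OPA1 on the right, with symbols for libraries 1 to 4 (circle, square, triangle, diamond) and lines for group means. The groups lie apart for Spry1/Spry2, Spry2/Spry4 and Spred1/Spred2 and overlap for the other 5 pairs, where Opa1-/- library 4 is the low point for Dusp4/Dusp5 and Dusp4/Dusp6.

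The genes whose pattern was most like that of a member were found by the root mean square difference of log2 values over the 8 libraries, each gene's own mean removed, among 11540 named genes. Group means were kept, so genes with a similar difference between the groups come out close. The ranks are therefore not separate from the differences given above. For Dusp6 they were Acot9, Zfp280c and Fundc1 (0.04 each), all on the X chromosome, whose median difference was -0.36. Acot9 averaged 90.2 ± 2.21 TPM in Opa1-/- libraries and 135 ± 4.71 TPM in reconstituted libraries (SD, n = 4 each). For Spry2 they were Stk39, Txlng and Micall2 (0.05 each), and for Etv5 they were Eps15, Fig4 and Hspa2 (0.03 to 0.04). By the same measure Dusp5 ranked 49 and Spry2 ranked 71 in likeness to Dusp6, and Spred1 ranked 34 in likeness to Etv5. The remaining members came much further down for Dusp6, from Etv5 at 2044 to Spry1 at 10816, with Dusp4 at 6075. For Etv5 the remaining members ranked from 5117 (Spry2) to 10628 (Spry1), with Etv4 at 5772.

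Other genes of the pathway were read from 10 further lists, against the 33.0% of all genes that passed, 16.8% lower and 16.3% higher. Of 7 other MAP kinase phosphatases tested, 3 fell and none rose. Dusp9, a cytoplasmic phosphatase for ERK, was at 36.4 ± 4.32 TPM in Opa1-/- libraries and 78.8 ± 7.53 TPM in reconstituted libraries (SD, n = 4 each; difference -1.10, adjusted p = 6.97e-05 by limma). It is X-linked, and after subtracting the chromosome median it was at -0.74 (adjusted p = 0.000659). Dusp16, which acts mainly on JNK and p38, fell by 0.39 and Dusp7 by 0.25. Dusp1, Dusp2, Dusp8 and Dusp10 did not pass. Of the members' other relatives, Spred3 rose by 0.39 (adjusted p = 0.00155), Etv1 did not pass and Spry3 was too low to test.

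Genes listed here as other feedback inhibitors of receptor signalling went both ways, 3 of 9 up and 3 down. Whether each of them acts as an inhibitor in these cells was not tested. Errfi1, which inhibits the epidermal growth factor receptor, was at 38.8 ± 4.30 TPM in Opa1-/- libraries and 57.8 ± 3.74 TPM in reconstituted libraries (SD, n = 4 each; difference -0.57, adjusted p = 0.000800 by limma). Lrig1, which promotes receptor breakdown, fell by 0.47. Socs3, an inhibitor of cytokine receptor signalling, was at 25.3 ± 0.474 TPM in Opa1-/- libraries and 16.7 ± 1.70 TPM in reconstituted libraries (SD, n = 4 each; difference 0.58, adjusted p = 0.000328 by limma).

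Of 15 genes known to follow ERK activity, 6 fell and none rose, with a median difference of -0.09. That is 40% called, against 33.0% of all genes tested, 16.8% lower and 16.3% higher. Epha2, an ephrin receptor, was at 97.0 ± 6.18 TPM in Opa1-/- libraries and 139 ± 1.82 TPM in reconstituted libraries (SD, n = 4 each; difference -0.51, adjusted p = 0.000107 by limma). Lif, a cytokine, fell by 0.43 and Hmga2, a chromatin protein, by 0.40. The Lif call was lost when Opa1-/- library 1 or 2 or reconstituted library 3 or 4 was left out (adjusted p up to 0.103), without both libraries numbered 3 (0.0625), on TPM as deposited (0.0767), with upper-quartile scaling (0.0543) and with no filter on low values (0.0847). The Hmga2 call was lost without both libraries numbered 3 (0.0513). Ccnd1, cyclin D1, was at 315 ± 21.6 TPM in Opa1-/- libraries and 334 ± 6.60 TPM in reconstituted libraries (SD, n = 4 each) and did not pass (adjusted p = 0.228 by limma). After subtracting chromosome medians Ccnd1 was at -0.19 and passed (adjusted p = 0.0216). It also passed without Opa1-/- library 3 (-0.13, adjusted p = 0.0324), and was at -0.05 without Opa1-/- library 4 (adjusted p = 0.395). The immediate early genes Egr1 (0.09) and Fos (-0.07) did not pass, nor did Fosl1 (-0.04) and Myc (-0.19). Without Opa1-/- library 4 Fos was at -0.10 and Fosl1 at -0.07, and neither passed.

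The kinase core went both ways, with 3 of 15 genes up and 4 down. Map2k1, encoding MEK1, rose by 0.24, Mras, a RAS relative, by 0.25 and Mapk3, encoding ERK1, by 0.15, while Rras2, another RAS relative, fell by 0.34. After subtracting chromosome medians Mapk3 was at 0.05 (adjusted p = 0.394), Mras at 0.16 (adjusted p = 0.0516) and Map2k1 at 0.15 (adjusted p = 0.0464). The Mapk3 call was also lost on TPM as deposited (0.108), with length and GC trends taken out (0.0615) and without both libraries numbered 3 (0.0763). Of 8 RAS GTPase-activating proteins, Rasa3 fell by 0.61 and Rasa1 by 0.29, and none rose with all 8 libraries. Without Opa1-/- library 4, Dab2ip (0.39, adjusted p = 0.00110 by limma) and Rasa2 (0.17, 0.0411) passed on the higher side. Rasa4 (-0.21, 0.0299) then passed on the lower side. With length and GC trends taken out Rasa1 was at -0.14 (adjusted p = 0.0307). Of 11 adaptors and exchange factors, Frs3 rose by 0.36 and Shc1 by 0.21. The Shc1 call was lost when any library other than Opa1-/- library 4 was left out (adjusted p up to 0.104). The same happened on TPM as deposited (0.119), with scaling factors from all genes above 0 (0.0909) and without a low-value filter (0.177). Shc1 lost its call under 12 of 23 alternatives in all. The Frs3 call was lost without Opa1-/- library 2 (0.0559) or reconstituted library 3 (0.0521) or 4 (0.0600), or with no filter on low values (0.0668).

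Of 6 repressors that ERK is known to relieve, 0 passed in limma, and 1 (Cic) had an unadjusted p below 0.05. Cic, whose protein represses Etv4 and Etv5, was at 43.4 ± 5.08 TPM in Opa1-/- libraries and 37.6 ± 0.559 TPM in reconstituted libraries (SD, n = 4 each; difference 0.19, adjusted p = 0.0832). Without Opa1-/- library 4 Cic was at 0.28 and passed (adjusted p = 0.00107), and after subtracting chromosome medians it was at 0.09 (adjusted p = 0.438). Etv6, another of these repressors, was at -0.08 with all 8 libraries. Without Opa1-/- library 4 Etv6 was at -0.10 and passed on the lower side (adjusted p = 0.0472 by limma). With all 8 libraries Cic passed under upper-quartile scaling (adjusted p = 0.0356) and at a filter of 5 TPM (0.0475). It passed under 5 of 23 alternatives in all. Of 14 ERK substrates and scaffolds, 3 fell and 1 rose. Srf, serum response factor, fell by 0.32, Rps6ka3, a kinase that ERK activates, by 0.49, and Lamtor2, a scaffold for MEK1 at lysosomes, rose by 0.29. Rps6ka3 is X-linked, and after subtracting the chromosome median it stood at -0.13 (adjusted p = 0.193). Elk1, the other gene of this list that fell (-0.28), is X-linked too. After the same subtraction Elk1 was at 0.08 (adjusted p = 0.347 by limma).

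With all 8 libraries, growth factor receptors and ligands upstream of RAS were lower wherever they passed. These were 9 of the 15 tested, or 60%, against 33.0% of all genes tested, with none higher. The median difference was -0.35. Fgfr2 was at 0.10 and did not pass. Without Opa1-/- library 4 Fgfr2 was at 0.15 and passed on the higher side (adjusted p = 0.0402 by limma). Another 5 listed genes were too low to test. Of these Kit, a receptor named after its values were seen, was at 0.837 to 1.13 TPM in Opa1-/- libraries and 0.163 to 0.223 TPM in reconstituted libraries. Pdgfra and Tgfa were lower in the mean in Opa1-/- libraries, at 0.392 and 0.605 TPM, against 0.811 and 1.10 TPM in reconstituted libraries. Fgfr1, a fibroblast growth factor receptor, was at 30.7 ± 2.89 TPM in Opa1-/- libraries and 55.8 ± 0.937 TPM in reconstituted libraries (SD, n = 4 each; difference -0.84, adjusted p = 4.42e-05 by limma). It lies on chromosome 8, and after subtracting that chromosome's median it was at -0.66 (adjusted p = 0.000155). Pdgfb, a platelet-derived growth factor, was at 6.10 ± 1.00 TPM in Opa1-/- libraries and 11.8 ± 1.27 TPM in reconstituted libraries (SD, n = 4 each; difference -0.85, adjusted p = 0.000615 by limma). Fgf10, a ligand of Fgfr2, fell by 0.55 (adjusted p = 0.00668).

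**Figure D5:**
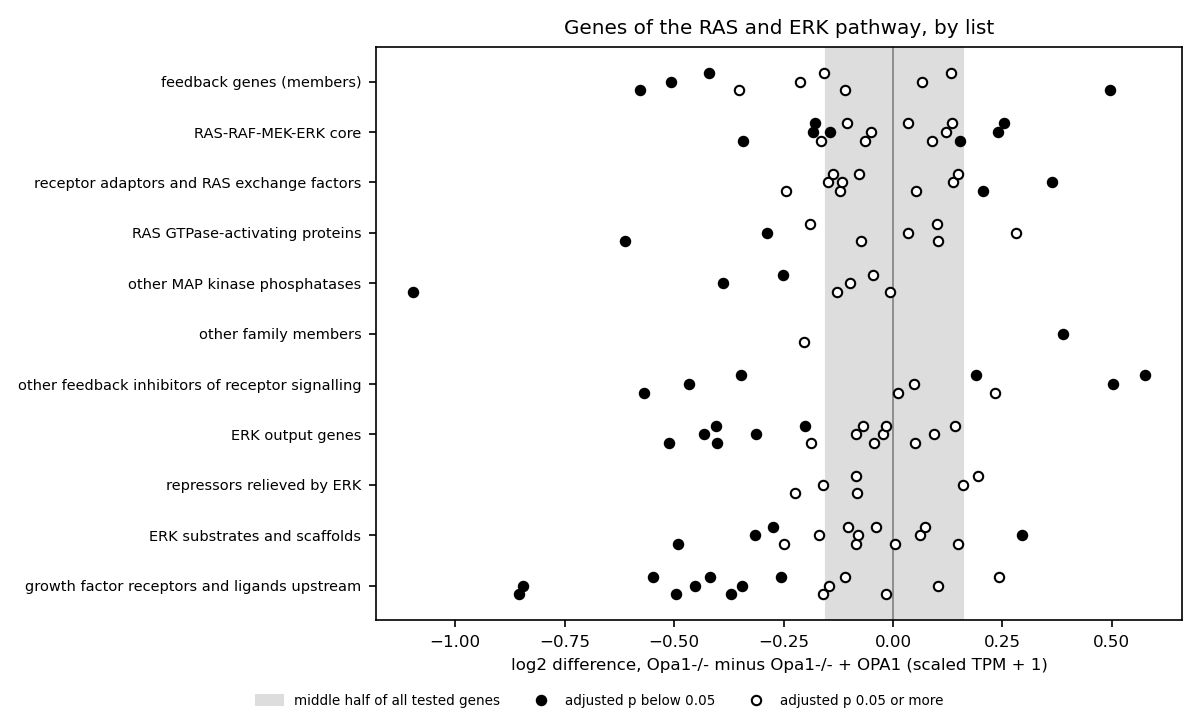
Log2 difference of every tested gene of the 11 lists, Opa1-/- minus Opa1-/- + OPA1, 1 point per gene (filled where adjusted p was below 0.05), with the band between the quartiles of all tested genes shaded. The filled points among receptors and ligands, ERK output genes and other MAP kinase phosphatases lie to the left of 0, and the kinase core and other feedback inhibitors have filled points on both sides.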

How the data were processed

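RNA sequencing libraries of immortalized mouse embryonic fibroblasts were deposited by the authors as TPM per gene, per the file headers, with 1 file per library and each summing to 1000000. The submitters' processing notes name STAR 2.5.2b, Subread 1.5.2, featureCounts and bcl2fastq 2.17, and as builds GRCh38 and mm10, with no role for any. The identifiers are mouse. TPM keeps no depth, and reads were recovered from TPM times union exon length in GENCODE M21 (GRCm38; 49056 of 49315 identifiers). Of values below 20 reads, 93.8% to 94.2% were whole within 0.05.

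A gene was tested where 4 or more libraries reached 1 TPM. Libraries were scaled on these genes by unweighted trimmed means of log ratios, with trims of 30% (ratios) and 5% (levels) per tail, and fitted with limma 3.58.1 in R 4.3.3, two-sided, with a mean-variance trend and no covariates. Calls are at adjusted p below 0.05. The fit was tested on simulated data. Other steps used Python 3.11.15, scipy 1.17.1 and pandas 2.3.3.

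The genes and lists were chosen with earlier results of these data known. All 10 feedback genes are named. Of each other list, up to 3 called genes with the largest change and at least 5 TPM in the higher group are named, with Mapk3, Cic and Ccnd1 always (a further gene named by this rule is not reported here), and 3 genes most like each of Dusp6, Spry2 and Etv5. Others were named after their values were seen. The alternatives fixed at the start concern scaling, added constant, filter, recovered reads, replicate number, chromosome medians, length and GC trends, gene set, libraries left out and a test against a 1.2-fold change. Scaling factors from all genes above 0 were added after seeing the data. No pair of libraries was treated as 1 sample.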

Additional observations from a re-analysis of the deposited data

Results flagged for a closer look

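Samples far from the others of their group were looked for among 90 groups of 4 libraries, and 4 were found. Chance flags about 1 in 20 such groups. Dusp4 in Opa1-/- library 4 was at 74.4 TPM, far below the other 3. The same library was far below the others in the log2 ratio Dusp4/Dusp5 (0.39) and in the log2 ratio Dusp4/Dusp6 (-0.91), which share the Dusp4 value. Of all genes tested, 3.55% had Opa1-/- library 4 as such a low point. Spred3 in Opa1-/- library 1 was at 6.85 TPM, above the other 3.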

How the results depend on the processing

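Dusp5 and Dusp6 kept their direction and their call under all 23 alternatives. Spry2 and Spry1 lost theirs in the test against a 1.2-fold change (adjusted p = 0.0777 and 0.271), and Spry1 was not tested at a filter of 5 TPM, so 0 feedback genes were called higher under either. Of the other genes named as called, Rasa3, Dusp9, Errfi1, Socs3, Epha2, Fgfr1 and Pdgfb kept their calls in that test, and the rest lost them (Rps6ka3 with the lowest adjusted p, 0.0801). That test called 411 genes higher and 323 lower over the table. The calls lower were 1529 on TPM as deposited and 1588 with chromosome medians removed, against 2392. Leaving out 1 library at a time gave 1726 to 2572 genes higher and 1795 to 2731 lower, and 1 to 2 feedback genes higher and 3 to 4 lower, where Dusp4 and Spred2 passed without Opa1-/- library 4. No feedback gene changed direction. With the replicate number as a block, 5 feedback genes were lower, Etv4 (adjusted p = 0.0328) and Etv5 (0.0370) being added. Same-numbered libraries had correlated deviations of only 0.01 to 0.14, so the numbers are not read as pairs. The count of 3 family ratios at the smallest exact p was the same with 1 TPM added. With 1 library left out the exact test cannot pass. Depth limits Spry1 most, at 119 to 239 reads.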
